A study of Rattus norvegicus with 6 samples.

Results

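The genes described are 9 members of the JAK-STAT signalling route, 5 STAT transcription factors (Stat2, Stat3, Stat5a, Stat5b, Stat6) and 4 members of the SOCS family of inhibitors (Socs1, Socs2, Socs3, Cish). They were taken by gene name from a table of 19266 genes, and each name matched 1 row. The RNA came from rat bone marrow mesenchymal stem cells of the line SCSP-402, labelled WT, which shared a co-culture with the mouse microglial line BV2 in every library. In 3 libraries the co-culture was left unstimulated and in 3 it received lipopolysaccharide (LPS), a component of bacterial outer membranes that activates toll-like receptor 4. The sources used here give neither the LPS dose nor its duration, nor the layout of the co-culture. There was no library of stem cells without BV2, and all stem cells were of 1 line. The labels do not say that libraries of a group came from separate cultures, so p-values measure library-to-library spread alone, and that spread may be technical. In such bulk RNA, fewer cells of a type and less RNA per cell cannot be told apart.

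STAT proteins wait in the cytoplasm until a cytokine receptor and its Janus kinases (JAKs) phosphorylate them, after which they pair and act on genes in the nucleus. SOCS proteins are made in response and close the loop: they block the kinases or receptors and send them for degradation. In mesenchymal stem cells this route carries signals of interleukin 6 family cytokines, interferons, growth hormone and interleukin 4. STAT activity lies mainly in phosphorylation, which RNA levels do not measure.

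The sequences that bear on this loop are the stretches before 2 SOCS family genes that hold the element TTCNNNGAA, the core that most STAT dimers recognise. The element reads alike on both strands. Windows from 250 bases before to 50 bases after the start of a gene were taken from RefSeq, build GRCr8, and existed for 8 of the 9 members, Socs2 being the exception. Capitals mark each match. The first stretch is the 250 bases before the start of Cish, chr8:116850719-116850968 on the plus strand, and the second runs from 220 to 121 bases before the start of Socs1, chr10:5389354-5389453 on the plus strand.
Cish: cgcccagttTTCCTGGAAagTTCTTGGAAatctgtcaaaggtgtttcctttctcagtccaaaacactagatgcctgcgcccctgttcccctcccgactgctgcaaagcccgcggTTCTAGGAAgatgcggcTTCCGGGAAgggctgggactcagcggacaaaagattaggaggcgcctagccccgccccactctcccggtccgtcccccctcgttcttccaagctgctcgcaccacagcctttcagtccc
Socs1: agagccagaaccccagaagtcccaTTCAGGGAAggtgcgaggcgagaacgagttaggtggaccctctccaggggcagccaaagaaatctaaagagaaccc

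Cish held 4 matches, beginning 241, 230, 136 and 119 bases before the start, spelled TTCCTGGAA, TTCTTGGAA, TTCTAGGAA and TTCCGGGAA. Of 33469 windows in the reference, 8.87% held at least 1 match and 2 held at least 4. Socs1 held 1 match, TTCAGGGAA, beginning 196 bases before the start. No match was found in these windows for Stat2, Stat3, Stat5a, Stat5b, Stat6 or Socs3, which says only that the letters are not there. The Socs3 window lies around a start inside the RefSeq gene model, not at its outer end. The same outer letters with 4 bases between TTC and GAA, a spacing that STAT6 prefers, were in 7.28% of all windows and in none of the 8 member windows. A match in sequence is not evidence that a STAT protein was bound.

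The libraries held 77.4 M to 82.0 M count units, which would be 19.3 M to 20.5 M fragments if 1 fragment were worth 4 units. What a unit stands for is not stated, and multiples of 4 were only moderately in excess among low counts. On the first principal component of log2(FPKM + 1), untreated replicate 1 lay at -11.0, between the other untreated libraries (-26.7 and -26.6) and the LPS libraries (19.5 to 22.5). FPKM scales fragments to transcript length and to library size, so levels of different genes can be compared on it. For each of the 4524 genes called different, the distance between the other untreated libraries and the LPS group was taken as the whole, and untreated replicate 1 stood at a median of 19.4% along it. The calls used this library as untreated, so genes where it lay near the LPS group were less likely to be among them. The edgeR test given below called 20.1% of all tested genes higher and 19.0% lower. All 7 stromal markers were tested, 4 being called higher (Thy1, Nt5e, Eng, Pdgfrb) and 2 lower (Col1a1, Itgb1). Their summed level was 10055 to 10836 FPKM in untreated and 8365 to 8426 in LPS libraries, most of it Col1a1. Of 10 microglial and macrophage markers in the table, only Tmem119 was tested, and the other 9 were at most 0.595 FPKM in any library. The summed level of that list was 63.1 to 67.0 FPKM in untreated and 69.4 to 71.8 in LPS libraries, nearly all of it Tmem119 (64.7 ± 2.14 and 69.4 ± 1.20, SD, n = 3), which osteoblast-lineage cells also express. Aif1 was listed at 0 in all untreated libraries, and Ptprc and Trem2 in all LPS libraries. Adgre1 was at most 0.081 FPKM in untreated and 0.317 to 0.347 in LPS libraries. BV2 is a mouse line and the table is on the rat build mRatBN7.2. Low values in these rat rows therefore do not measure how much BV2 RNA was present. The part of BV2 RNA or of stromal cell makeup in the results was not tested.

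With LPS, Stat5a, Stat5b and Cish were higher and Socs2 was lower. Socs3, the member with the greatest difference in FPKM, did not pass in the edgeR fit of all 6 libraries with group as the only term. It passed when untreated replicate 1 was left out, with limma on FPKM, and with the replicate number as a block. Stat2, Stat3, Stat6 and Socs1 did not pass. Calls are from edgeR's quasi-likelihood test on the counts with a Benjamini-Hochberg adjusted p under 0.05, over the 11559 genes that reached 1 FPKM in 3 or more libraries. Thus 3 of 9 members were called higher, where 20.1% of all tested genes were, and 1 of 9 lower, where 19.0% were. The groups did not overlap in FPKM for those same members, 3 with LPS higher, as for 32.8% of tested genes, and 1 with LPS lower, as for 20.6%. The 1 lower member in both counts, Socs2, passed the filter only through its untreated values, so the filter itself favoured a difference. The median log2 fold change of the members was 0.0024, and that of all tested genes 0.00012. These shares are not read as particular to the members. On the FPKM scale limma called 2903 genes higher and 1685 lower, where edgeR called 2323 and 2201. FPKM thus leaned toward LPS higher beside the normalized counts. For Stat2 the log2 fold change was 0.047 by limma on log2(FPKM + 1) and 0.0024 by edgeR.

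**Figure D1:**
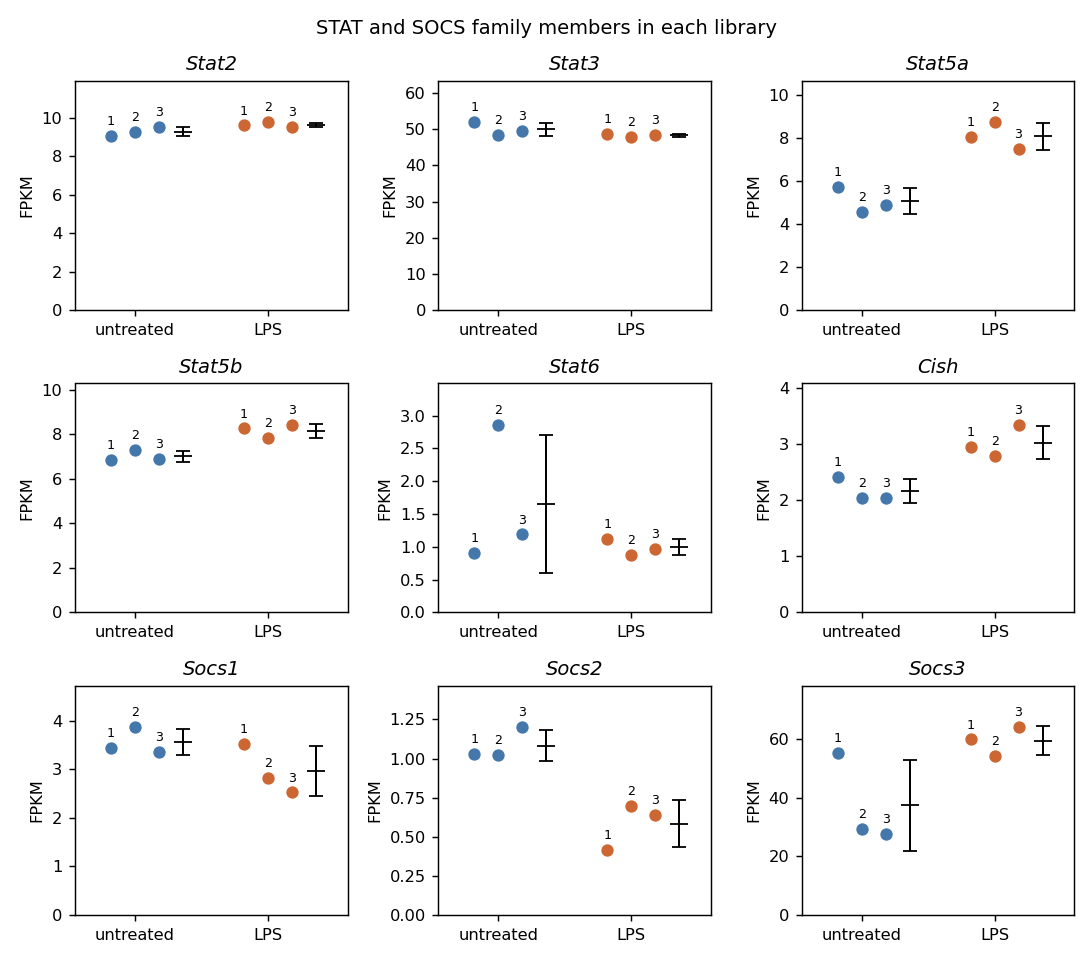
FPKM of each member in each library, with the replicate number above each point, blue for untreated and orange for LPS co-culture, and the mean ± SD (n = 3) as a black bar beside the points. Stat5a, Stat5b and Cish lie higher in all LPS libraries, Socs2 lies lower, and untreated replicate 1 of Socs3 lies at 55.4 FPKM, within the LPS range.

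In untreated co-culture Stat3 had the highest mean, 50.0 ± 1.76 FPKM, followed by Socs3 at 37.5 ± 15.5, whose values reached across those of Stat3. Stat2 (9.29 ± 0.224), Stat5b (7.02 ± 0.246), Stat5a (5.04 ± 0.605) and Socs1 (3.56 ± 0.271) followed without overlap between neighbours. Below them stood Cish at 2.17 ± 0.215, and Stat6 at 1.65 ± 1.06, whose values reached across those of Cish and of Socs2 (1.08 ± 0.101). With LPS the order of the upper pair was reversed, with Socs3 at 59.5 ± 4.87 FPKM above Stat3 at 48.3 ± 0.460 in every library. Stat5a (8.07 ± 0.627) then overlapped Stat5b (8.17 ± 0.314), and Cish (3.02 ± 0.287) overlapped Socs1 (2.96 ± 0.516).

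Stat3, the factor activated by interleukin 6 family cytokines, stood at 51.9, 48.5 and 49.5 FPKM in untreated replicates 1 to 3 and at 48.7, 47.8 and 48.4 in LPS replicates 1 to 3. The groups overlapped. Its log2 fold change in the count fit was -0.10 ± 0.041 (SE), with a 95% interval from -0.19 to -0.0035 and an adjusted p of 0.0928 by edgeR. The p before adjustment was 0.0436, the 1 STAT member under 0.05 on the lower side. With all 6 libraries neither edgeR nor DESeq2 called a STAT member lower. Stat2, which acts in the response to type I interferons, stood at 9.08, 9.26 and 9.53 FPKM in untreated and 9.61, 9.77 and 9.52 in LPS libraries. Its log2 fold change was 0.0024, with a 95% interval from -0.10 to 0.11 and an adjusted p of 0.970 by edgeR. The Stat2 row (ENSRNOG00000031081) runs from 702495 to 718967 on the plus strand of chromosome 7 in mRatBN7.2.

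Stat5a and Stat5b encode close paralogs that carry growth hormone and prolactin signals, and reads from stretches they share could be split between them. Stat5a stood at 5.71, 4.54 and 4.88 FPKM in untreated and at 8.04, 8.71 and 7.46 in LPS libraries. All LPS values lay above all untreated ones. It was 1.55-fold higher (log2 fold change 0.63 ± 0.097 SE, adjusted p = 0.00145 by edgeR), and 1355 of the 11559 tested genes had a larger change in either direction. The call held in all 14 alternatives, with log2 fold changes from 0.56 to 0.72.

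Stat5b stood at 6.86, 7.30 and 6.90 FPKM in untreated and at 8.26, 7.82 and 8.43 in LPS libraries, again without overlap. The difference was small, 1.12-fold (log2 fold change 0.17 ± 0.054 SE, adjusted p = 0.0351 by edgeR). It was lost in 6 of 14 alternatives, 4 of them by 1 library being absent. These were untreated replicate 1 (adjusted p = 0.0535), untreated replicate 3 (0.0954), LPS replicate 1 (0.103) and LPS replicate 3 (0.116). The ratio of Stat5a to Stat5b in FPKM was 0.833, 0.621 and 0.707 in untreated and 0.973, 1.11 and 0.886 in LPS libraries. Every LPS ratio was above every untreated ratio. The ratio was chosen after the values were seen and is given as a description. Its p by an exact permutation test was 0.1, the smallest possible with 3 libraries a group.

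Stat5b, Stat5a and Stat3 follow one another on chromosome 10 of mRatBN7.2. Stat5b (ENSRNOG00000019075) runs from 85705670 to 85775668 on the minus strand, Stat5a (ENSRNOG00000019496) from 85785537 to 85809866 on the plus strand, and Stat3 (ENSRNOG00000019742) from 85811218 to 85863057 on the minus strand. No other row of the table lies between them. Stat5b and Stat5a are 9868 bases apart, and Stat5a and Stat3, whose ends face each other, 1351 bases. The middle gene of the row was the one with the largest change.

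Stat6, which relays interleukin 4 and interleukin 13 signals, stood at 0.906, 2.86 and 1.19 FPKM in untreated and at 1.12, 0.881 and 0.974 in LPS libraries. Only untreated replicate 2 was high, and the groups overlapped. The log2 fold change of -0.78 ± 0.38 (SE, adjusted p = 0.141 by edgeR) was -0.12 without untreated replicate 2, and the gene was called lower (-1.08, adjusted p = 0.00958) without untreated replicate 1. The Stat6 row (ENSRNOG00000025023, chromosome 7, 63479642 to 63498495, plus strand) overlaps the rows of Nemp1 on the same strand and Nab2 on the other, at 15.5 to 20.2 and 25.9 to 37.8 FPKM. In untreated replicate 2 these stood at 15.8 and 25.9 FPKM, close to untreated replicate 3 (15.5 and 26.1). The sources used here do not say how reads were shared among these rows. No other member overlaps another row.

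Socs3, which inhibits receptors of the interleukin 6 family, was the most abundant SOCS member. Its row (ENSRNOG00000063373) runs from 103193537 to 103197787 on the minus strand of chromosome 10. It stood at 55.4, 29.5 and 27.6 FPKM in untreated and at 60.0, 54.4 and 64.1 in LPS libraries. Untreated replicate 1 lay within the LPS range, 86.7% along the distance from the other untreated libraries to the LPS group, and the groups overlapped for that reason. With all libraries Socs3 was 1.54-fold higher (log2 fold change 0.62 ± 0.23 SE, adjusted p = 0.0652 by edgeR). Without untreated replicate 1 it was 2.01-fold higher (log2 fold change 1.01, adjusted p = 3.04e-07). Leaving out any other library gave adjusted p from 0.110 to 0.179. limma on log2(FPKM + 1) called it with all libraries (adjusted p = 0.0456), and DESeq2 did not (0.141). edgeR with the replicate number as a block also called it (0.0249), though the labels do not say that a number marks a shared culture.

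Cish, which competes with STAT5 for its docking sites on receptors, stood at 2.41, 2.04 and 2.04 FPKM in untreated and at 2.95, 2.78 and 3.34 in LPS libraries. All LPS values lay above all untreated ones. It was 1.35-fold higher (log2 fold change 0.43 ± 0.14 SE, adjusted p = 0.0338 by edgeR). The call was lost in 5 of 13 alternatives, 4 of them by 1 library being absent. These were untreated replicate 2 (adjusted p = 0.101), untreated replicate 3 (0.0938), LPS replicate 1 (0.0741) and LPS replicate 3 (0.120). It was held by DESeq2 (0.0171) and without untreated replicate 1 (0.0208). The 4 TTCNNNGAA matches printed above lie before this gene, at positions of build GRCr8. Its row (ENSRNOG00000029543) runs from 107972306 to 107977250 on the plus strand of chromosome 8 in build mRatBN7.2.

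Socs2, the inhibitor of growth hormone signalling, stood at 1.03, 1.02 and 1.20 FPKM in untreated and at 0.415, 0.696 and 0.640 in LPS libraries. All LPS values lay below all untreated ones. It was 1.90-fold lower (log2 fold change -0.93 ± 0.23 SE, adjusted p = 0.0126 by edgeR), and 619 of the tested genes had a larger change in either direction. The call held in all 13 alternatives that tested it, with log2 fold changes from -1.06 to -0.40, the smallest being limma on log2(FPKM + 1), where the added 1 shrinks changes of low genes. Socs2 passed the filter only through its untreated values, so the filter itself favoured a difference. Of the 13 alternatives, only that with no filter on low values did not use that filter (adjusted p = 0.0282 by edgeR). Socs2 was the least abundant member, with 68 to 196 count units a library, or 17 to 49 fragments if 4 units make 1. Its row (ENSRNOG00000008965) runs from 30008578 to 30043548 on the minus strand of chromosome 7.

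Socs1, which blocks JAK kinases directly, stood at 3.44, 3.87 and 3.37 FPKM in untreated and at 3.53, 2.83 and 2.53 in LPS libraries. LPS replicate 1 lay within the untreated range, and the groups overlapped. Its log2 fold change was -0.31 ± 0.16 (SE), with a 95% interval from -0.68 to 0.055 and an adjusted p of 0.158 by edgeR. Its row (ENSRNOG00000002568) runs from 4882560 to 4884383 on the plus strand of chromosome 10 in mRatBN7.2, while the stretch printed above is in GRCr8. None of 13 alternatives called it, with adjusted p from 0.0597 to 0.387.

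The SOCS members together summed to 62.3, 36.4 and 34.2 FPKM in untreated and to 66.9, 60.7 and 70.6 in LPS libraries. Most of the sum was Socs3, so the place of untreated replicate 1 near the LPS libraries restates the Socs3 values. Socs3 made up 88.9%, 80.9% and 80.7% of that sum in untreated and 89.7%, 89.6% and 90.8% in LPS libraries. The share of Socs2 was 2.66% ± 0.938 (SD, n = 3) without LPS and 0.891% ± 0.263 with it. The STAT members summed to 74.5, 72.5 and 72.0 FPKM in untreated and to 75.7, 75.0 and 74.8 in LPS libraries. Within that sum Stat5a went from 6.90% ± 0.713 to 10.7% ± 0.830, and Stat3 from 68.5% ± 1.41 to 64.3% ± 0.500. Shares of a sum depend on one another, so these are given without a test.

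**Figure D2:**
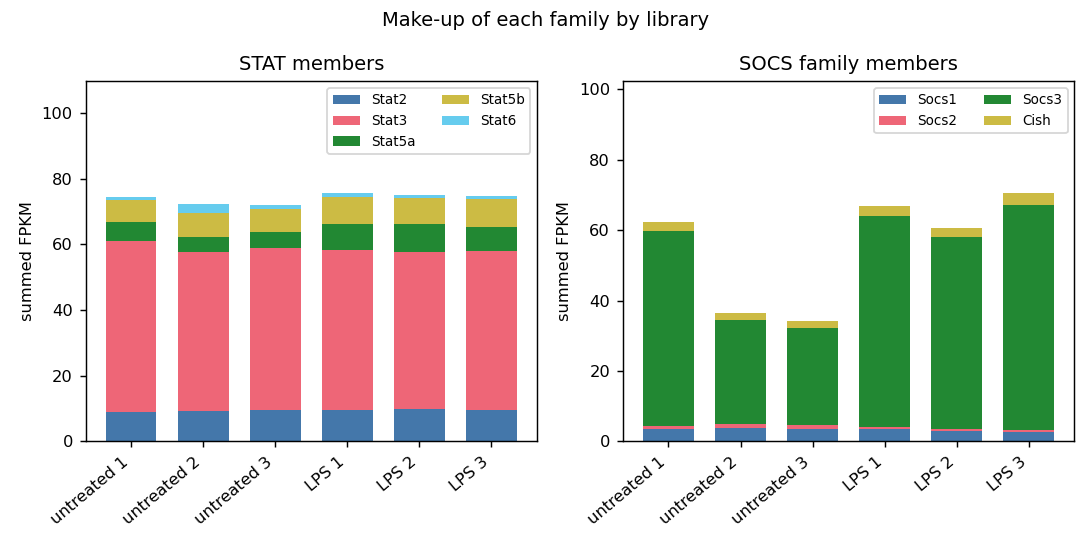
Summed FPKM of the STAT members (left) and of the SOCS family members (right) in each library, with each colour the FPKM of 1 gene. STAT sums stay between 72.0 and 75.7 FPKM, while the SOCS sum is 34.2 to 36.4 in untreated 2 and 3 and 60.7 to 70.6 in the LPS libraries, with untreated 1 at 62.3, and Socs3 is the largest block in each.

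Ratios within a library were chosen after the values were seen, 4 in all. Socs3 over Stat3 was 1.07, 0.607 and 0.557 in untreated and 1.23, 1.14 and 1.32 in LPS libraries. Socs3 over Socs1 was 16.1, 7.61 and 8.19 in untreated and 17.0, 19.2 and 25.4 with LPS. Cish over Socs2 was 2.35, 2.00 and 1.70 in untreated and 7.10, 3.99 and 5.21 with LPS. In each, as in Stat5a over Stat5b, all LPS ratios lay above all untreated ones, including untreated replicate 1. They are a description. An exact permutation test gave p = 0.1 for each, the smallest p possible with 3 libraries a group.

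**Figure D3:**
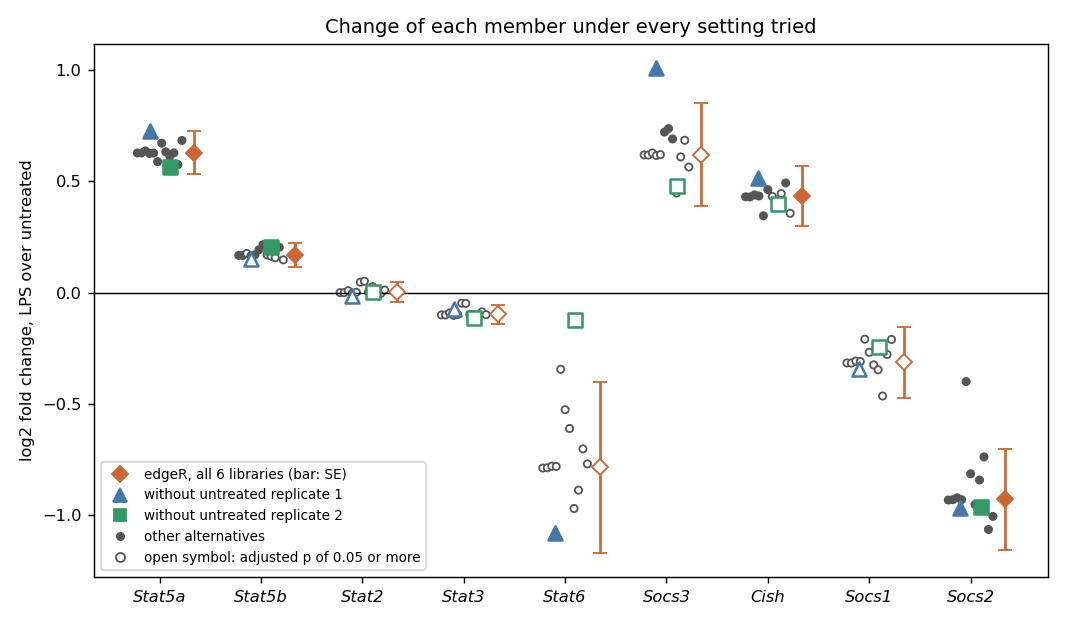
Log2 fold change (LPS over untreated) of each member under edgeR with all 6 libraries (orange diamond, bar ± SE), without untreated replicate 1 (blue triangle), without untreated replicate 2 (green square) and under the other alternatives (grey circles), with open symbols where the adjusted p was 0.05 or more. Stat5a and Socs2 are filled throughout, Socs3 rises to 1.01 without untreated replicate 1, and Stat6 ranges from -1.08 to -0.12.

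The SOCS genes outside the members were Socs4, Socs5, Socs6 and Socs7, whose roles lie partly in growth factor and insulin signalling. Socs5 was higher, at 18.2, 14.2 and 13.5 FPKM in untreated and 22.1, 21.1 and 21.1 in LPS libraries (1.36-fold, adjusted p = 0.00888 by edgeR, called in all 14 alternatives). Socs4 was 1.20-fold lower, from 4.03 ± 0.214 to 3.46 ± 0.190 FPKM (adjusted p = 0.0167), and lost its call with limma on log2(FPKM + 1) (0.0706). Socs6 was 1.19-fold lower (adjusted p = 0.0499), a call lost in 8 of 13 alternatives, among them leaving out any 1 untreated library (up to 0.150). Socs7 stood at 1.72 ± 0.0822 and 1.81 ± 0.172 FPKM (adjusted p = 0.824).

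Upstream of the members, 34 receptors were listed, of which 30 were in the table and 16 were tested. The test called 12 higher and 1 lower, where it called 20.1% and 19.0% of all tested genes, and the median of their log2 fold changes was 0.59. Genes of the route were listed with earlier results of these data known. The largest changes were those of Il4r, the interleukin 4 receptor that acts through STAT6 (9.71 ± 3.56 to 28.4 ± 1.46 FPKM, 2.83-fold, adjusted p = 0.000831 by edgeR), Il20rb (2.21-fold), Il6r (2.18-fold) and the oncostatin M receptor Osmr (23.7 ± 6.24 to 44.9 ± 1.03 FPKM, 1.83-fold). Il20rb and Il6r passed the filter through the LPS group, as they reached 1 FPKM in 0 and 1 untreated libraries, so the filter itself favoured a difference, and both are among the 12. The growth hormone receptor Ghr, chosen after its value was seen, was the 1 receptor called lower, at 5.44, 5.36 and 5.62 FPKM in untreated and 4.30, 4.35 and 4.55 in LPS libraries. It was 1.29-fold lower (adjusted p = 0.0045).

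Of 30 listed ligands, 16 were in the table and 8 were tested. Of these 4 were higher and 1 lower, beside 20.1% and 19.0% of all tested genes. Il6, an activator of STAT3, rose from 5.57 ± 5.01 to 33.0 ± 5.02 FPKM, 5.74-fold. Leaving out 1 library at a time gave 4.44-fold to 11.8-fold, the largest without untreated replicate 1. Csf3, the granulocyte colony-stimulating factor, was listed at 0 in untreated replicates 2 and 3, at 0.448 FPKM in untreated replicate 1 and at 4.21 to 5.39 FPKM with LPS, and no fold is given against the libraries at 0. It was called higher by edgeR (adjusted p = 0.00298) and in all but 1 of 13 alternatives, DESeq2 (0.0776), and it too passed the filter through the LPS group alone. Lif was 1.58-fold higher, a call lost when untreated replicate 2 or 3, or LPS replicate 1 or 3, was absent (adjusted p up to 0.0825). Cardiotrophin 1 (Ctf1) fell from 1.76 ± 0.436 to 1.05 ± 0.204 FPKM, a call lost in 4 of 13 alternatives, 3 of them being the absence of untreated replicate 3 or of LPS replicate 2 or 3 (up to 0.0925).

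Among the kinases, Jak2, which serves the growth hormone and interferon gamma receptors, rose from 18.5 ± 4.29 to 34.6 ± 0.767 FPKM (1.81-fold, adjusted p = 0.00149 by edgeR). Jak1, shared by most cytokine receptors, stood at 43.7 ± 1.57 and 42.3 ± 0.587 FPKM (adjusted p = 0.110). Of 3 kinases tested, 1 was called, as higher. Of 12 tested inhibitors and phosphatases outside the SOCS family, 4 were higher and 1 lower. Beside these counts, 20.1% of all tested genes were called higher and 19.0% lower. The ubiquitin ligase scaffold Cul5, which SOCS proteins use to mark targets for degradation, fell from 12.3 ± 0.0565 to 9.41 ± 0.532 FPKM (1.35-fold lower, adjusted p = 0.000718), while the adaptor Elob of the same ligase rose 1.16-fold. Eloc and Rnf7 of that ligase, named after their values were seen, were not called (adjusted p = 0.783 and 0.846 by edgeR). The JAK2 inhibitor Sh2b3 rose 1.31-fold. The phosphatase Ptpn1 rose 1.17-fold, and lost its call in 7 of 14 alternatives, 5 of them being the absence of any single library but untreated replicate 1 (adjusted p up to 0.131).

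Of 28 genes known as STAT targets, 25 were in the table and 21 were tested. Of these 12 were higher and 2 lower, beside 20.1% and 19.0% of all tested genes, with a median log2 fold change of 0.53. Haptoglobin (Hp) rose from 0.962 ± 0.684 to 6.58 ± 0.428 FPKM, 6.60-fold. Leaving out 1 library at a time gave 5.14-fold to 10.9-fold, the largest without untreated replicate 1. Hp passed the filter through the LPS group and 1 untreated library. Bcl3 rose 2.81-fold, Cebpb from 31.9 ± 11.7 to 88.7 ± 3.96 FPKM and Cebpd from 53.1 ± 22.3 to 136 ± 8.01. These genes also answer to NF-kB and other factors. The targets called lower, named after their values were seen, were Myc and Gadd45b. Over the 5 lists together 60 of the 90 genes in the table were tested, and 33 were higher and 5 lower, again beside 20.1% and 19.0% of all tested genes, with a median log2 fold change of 0.39. In the pathway annotation that the authors deposited, 112 rows carry the JAK-STAT pathway, all 9 members among them. Of the other 103, 63 were tested, and 26 were higher and 9 lower, beside 20.1% and 19.0% of all tested genes. The median log2 fold change of the 63 was 0.12. Only the members were left out, so genes of the 5 lists can recur among them. This annotation was turned to after the data were seen.

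**Figure D4:**
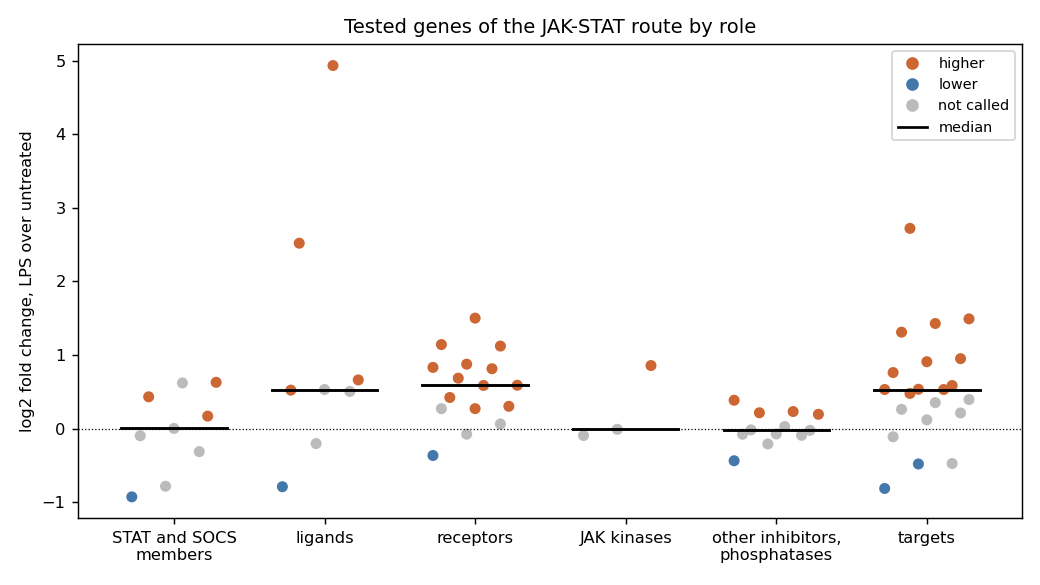
Log2 fold change (LPS over untreated) of each tested gene of the members and of the 5 lists of the route, with orange for genes called higher, blue for lower, grey for not called and a black line at the median of each group. Receptors and targets have medians of 0.59 and 0.53, while the members, the JAK kinases and the other inhibitors have medians near 0.

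The genes whose log2(FPKM + 1) followed Socs3 most closely over the 6 libraries, among 7352 candidates, outside the members, were the ferroxidase Cp (Pearson r = 0.996), Tada2a (0.995) and the urokinase Plau (0.995). Cp stood at 6.97, 4.74 and 4.60 FPKM in untreated and at 7.49, 7.29 and 7.63 with LPS. That its untreated replicate 1 lay near the LPS libraries follows from its choice by likeness to Socs3. edgeR with all 6 libraries called none of these genes (adjusted p = 0.0511 for Cp, 0.740 for Tada2a and 0.0732 for Plau). Those closest to Stat3 were Pcmtd1 (0.994), Npnt (0.991) and Jak1 (0.987). Each r is the highest of many over 6 points in 2 groups and is a description of these libraries.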

How the data were processed

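Poly(A) RNA of 6 libraries was sequenced as paired ends of 150 bases after strand marking with dUTP, per the labels' protocols. The submitters' processing notes name HISAT2 (2.2.1), StringTie (2.1.6) and cutadapt (1.9), the packages edgeR and DESeq2, and build mRatBN7.2. They do not give the annotation release, the strand setting or the counting step. The deposited table gives FPKM per gene and library as scaled by the authors, and whole numbers headed as counts. The authors' deposited counts were taken as estimated counts that had not been normalized, an assumption, as the counting step is not given. From 31.9% to 32.9% of those between 1 and 40 were multiples of 4, where 25% would be so by chance. That excess does not settle whether they were normalized. The counts are whole numbers as deposited.

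Genes that reached 1 FPKM in 3 or more libraries were tested with edgeR 4.0.16 (TMM factors, glmQLFit, glmQLFTest, group as the only term) in R 4.3.3, adjusted by Benjamini-Hochberg over all 11559. Standard errors were taken as the absolute log2 fold change over the root of F, and 95% intervals use the fit's degrees of freedom. The fit was tested on simulated counts. Alternatives were DESeq2 1.42.0, upper-quartile factors, other filters, counts divided by 4, limma 3.58.1 on log2(FPKM + 1) or log2(FPKM + 0.1), the replicate number as a block, and leaving out each library. Replicate libraries were no copies: chi-square per gene between them, at 4 units a fragment, was 4.59 to 21.9. The members and lists were chosen with earlier results of these data known. From each list of the route, up to 4 called genes are named by size of change, if a group mean reached 1 FPKM, and the most abundant fill up to 2. Motifs were searched in all RefSeq windows of GRCr8. The row named Stat4 is not reported here.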

Additional observations from a re-analysis of the deposited data

How the results depend on the processing

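Of the 9 members, Stat5a (higher) and Socs2 (lower) were called in every alternative that tested them, and Stat2, Stat3 and Socs1 in none. Leaving out 1 library at a time gave 1 to 3 members higher, where 3 were with all libraries. Stat5a alone was called higher without untreated replicate 3, LPS replicate 1 or LPS replicate 3. It gave 1 to 2 members lower, the second being Stat6 without untreated replicate 1. With a mean FPKM of at least 5 required, 5 members were tested. edgeR called 0 of them lower (1 at an unadjusted p under 0.05, Stat3), since Socs2 was no longer tested. In the route's lists 3 of 44 tested genes were then lower, in place of 5 of 60. Over all genes 1605 of 7357 tested were lower, in place of 2201 of 11559. No called member changed direction. Stat2 changed sign in 4 of 14 alternatives, uncalled in each. The labels give both groups replicates 1 to 3 without saying that a number marks a shared culture. Deviations of same-numbered libraries correlated at 0.0689, 0.0846 and 0.125, each library correlating best with its own number, as a hint from the data and not the design. With the replicate block 2 members were higher, Stat5a and Socs3 (adjusted p = 0.0249), and Stat5b (0.0709) and Cish (0.0651) were not called. Counts over all genes stayed within 1.5 times in every alternative. Low counts limit the precision of Socs2, which had 68 to 196 count units a library, and 3 libraries a group limit every p.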
